A study of Mus musculus with 7 samples.

Results

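The 7 genes Gabra2, Gabra4, Gabra5, Gabrb1, Gabrb2, Gabrg3 and Gabrd encode subunits of the GABA-A receptor. They were taken by symbol from 27998 genes measured in single nuclei of mouse striatum, and all 7 were found. The nuclei came from 4 HttQ175/+ mice, heterozygous for the Q175 knock-in allele of huntingtin, a model of Huntington's disease with a long CAG repeat, and from 3 wild-type (WT) mice. All were male C57BL6/J mice aged 14 months, except HttQ175/+ replicate 1 at 15 months. A mouse gave 1 library of 3' tags and counts as 1 replicate. The authors' annotation sorts 4524 nuclei into 12 types. Its method is not stated and it may rest on the same expression values, so levels are set side by side between types as a description, with no test.

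GABA-A receptors are chloride channels built from a ring of subunits, most often alpha and beta subunits with a gamma or a delta subunit. Many receptors with a gamma subunit, though not all, gather at synapses, whereas receptors that pair alpha4 with delta lie outside synapses and carry a tonic current at low GABA. Spiny projection neurons (SPNs), the GABA-releasing output neurons of the striatum, are known for such a current. They comprise direct-pathway neurons (dSPNs, annotated as D1.MSN) and indirect-pathway neurons (iSPNs, annotated as D2.MSN).

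Gabra4 and Gabrb1 are shown by sequence because they start head to head and yet differ in where they are high, as their levels show further on. Their RefSeq start sites (GRCm38.p6, the assembly also called mm10) lie 387 bases apart, at 71658308 on the minus strand and 71657921 on the plus strand of chromosome 5, so each transcript begins across the first bases of the other. Each window holds 250 bases before and 50 after the start, at chr5:71658259-71658558 (minus strand) for Gabra4 and chr5:71657671-71657970 (plus strand) for Gabrb1, written 5′ to 3′. Capitals mark matches on either strand to the GC box GGGCGG or the CCAAT box.
Gabra4: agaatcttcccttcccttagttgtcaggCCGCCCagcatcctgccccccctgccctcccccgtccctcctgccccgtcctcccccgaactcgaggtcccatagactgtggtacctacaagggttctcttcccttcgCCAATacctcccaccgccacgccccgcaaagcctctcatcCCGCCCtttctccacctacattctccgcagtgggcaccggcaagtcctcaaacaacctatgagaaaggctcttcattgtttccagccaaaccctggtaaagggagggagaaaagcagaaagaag
Gabrb1: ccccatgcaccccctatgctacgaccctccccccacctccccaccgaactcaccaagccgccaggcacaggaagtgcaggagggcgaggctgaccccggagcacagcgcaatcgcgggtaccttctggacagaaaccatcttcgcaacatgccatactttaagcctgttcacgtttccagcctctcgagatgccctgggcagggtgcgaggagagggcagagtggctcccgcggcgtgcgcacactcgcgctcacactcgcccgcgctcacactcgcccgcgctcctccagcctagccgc
The Gabra4 window held 2 GC boxes, which begin 222 and 74 bases before the start, and 1 CCAAT box 114 bases before it. The Gabrb1 window held neither, nor did the window at its second RefSeq start. Both genes lacked the TATA box TATAAA, the cyclic AMP response element TGACGTCA and the Egr site GCGTGGGCG in these windows. Among 32851 RefSeq windows of this length, 35.7% held a GC box, 37.4% a CCAAT box, 13.6% a TATA box, 1.79% the response element and 0.612% the Egr site. Guanine and cytosine made up 58.7% of the Gabra4 window and 66.0% of the Gabrb1 window, against a median of 52.7% over all windows. RefSeq windows were matched for 6 of the 7 members.

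On mm10 (GENCODE vM21), Gabra2 (70957597 to 71095849, minus strand), Gabra4 (71569749 to 71658308, minus strand) and Gabrb1 (71658113 to 72149037, plus strand) lie on chromosome 5. Gabrg3 (56716465 to 57387188, minus strand) and Gabra5 (57407672 to 57510059, minus strand) are neighbours on chromosome 7, 20484 bases apart. Gabrb2 (42419757 to 42629028, plus strand) is on chromosome 11 and Gabrd (155384980 to 155398112, minus strand) on chromosome 4. Gene bodies run from 13.1 kb for Gabrd to 671 kb for Gabrg3. Gabra4 and Gabrb1 overlap by 196 bases, and Gabra5 overlaps the antisense gene Gm9962 over 2270 bases. No source used here says whether reads were counted by strand, so the level of Gabra5 is uncertain.

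A mouse held 448 to 1239 nuclei and 1096116 to 2256178 unique molecular identifiers (UMIs) in the HttQ175/+ group, against 338 to 558 nuclei and 872558 to 1436425 UMIs in the WT group. Median depth was 1657 to 2384.5 UMIs per nucleus in HttQ175/+ mice and 2498 to 2599 in WT mice. The members held 491 to 2290 UMIs each over all nuclei, apart from Gabra5 with 104. Levels are in CPM, the UMI counts of each nucleus scaled to a common total and averaged over nuclei. Markers matched the annotated types, with exceptions. Nuclei annotated as IN-Pnoc/Pvalb carried 1136 CPM of summed Pvalb and Pthlh interneuron markers but 33.0 CPM of Pnoc interneuron markers, below the 240.3 CPM in dSPNs. Nuclei annotated as microglia carried 1052 CPM of microglial markers beside 4323 CPM of SPN markers. Eccentric SPNs carried 1009 CPM of dSPN markers, against 979 CPM in dSPNs, beside 927 CPM of eccentric SPN markers. Cholinergic interneurons carried 532 CPM of Sst interneuron markers (0 to 1580 CPM by mouse) beside 1925 CPM of cholinergic markers. Sst interneurons carried 596 CPM of eccentric SPN markers and 1809 CPM of SPN markers beside 2973 CPM of Sst interneuron markers. In nuclei annotated as Unknown.MSN, SPN markers summed to 4494 CPM, but dSPN markers to 64.9 CPM and iSPN markers to 67.1 CPM. The 7 libraries shared 3 nuclear barcodes. Htt averaged 172 ± 34.0 CPM in HttQ175/+ dSPNs and 188 ± 11.3 CPM in WT dSPNs (SD, n = 4 and 3), and 3' tags do not check the knock-in allele.

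Gabra2 encodes alpha2, found at synapses on many forebrain neurons. It averaged 294 ± 106 CPM in eccentric SPNs (SD, n = 6 mice), 273 ± 54.5 CPM in Sst interneurons, 269.6 ± 43.3 CPM in dSPNs and 264 ± 42.3 CPM in iSPNs (n = 7 each), and these neighbours in the order did not differ beyond their spread. It was lower in the other interneurons, at 134 ± 76.4 CPM in cholinergic interneurons (n = 3) and 118 ± 57.2 CPM in IN-Pnoc/Pvalb nuclei (n = 5), and in glia, at 135 ± 24.2 CPM in oligodendrocytes and 103 ± 41.1 CPM in astrocytes (n = 7 each). dSPNs exceeded astrocytes in 7 of 7 mice.

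Gabra4 encodes alpha4, the usual partner of delta outside synapses. It was highest in SPNs, at 187 ± 39.7 CPM in iSPNs and 173 ± 42.8 CPM in dSPNs. Sst interneurons held 80.8 ± 45.8 CPM, cholinergic interneurons 75.5 ± 13.7 CPM and IN-Pnoc/Pvalb nuclei 70.0 ± 46.5 CPM. dSPNs exceeded Sst interneurons in 7 of 7 mice. None of the 11 pairs of neighbours in its order differed beyond their spread, so its levels form a gradual order.

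Gabra5 encodes alpha5, known best from the hippocampus, and was scarce in all 12 types. Its highest mean was 21.5 ± 21.0 CPM in Sst interneurons, from 14 UMIs. In dSPNs 43 UMIs gave 11.6 ± 6.08 CPM. Nuclei annotated as Unknown.MSN gave 0 UMIs, which allows up to 20.8 CPM at 3 counts over 87 nuclei (76 HttQ175/+ and 11 WT).

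Gabrb1 encodes beta1. Beta subunits help form the binding site for GABA. It stood at 510.3 ± 119 CPM in astrocytes, against 127 ± 30.3 CPM in dSPNs, a ratio of 4.01, and was higher in astrocytes in 7 of 7 mice. Cholinergic interneurons (232 ± 92.7 CPM) and Sst interneurons (228 ± 75.7 CPM) came next, and astrocytes exceeded both by more than the spread. iSPNs (129.6 ± 27.6 CPM) and eccentric SPNs (124 ± 46.6 CPM) lay close to dSPNs. Thus the head-to-head neighbours differed between astrocytes and SPNs: the astrocyte level was 394% of the higher SPN level for Gabrb1 and 52.6% for Gabra4.

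Gabrb2 encodes beta2. It averaged 54.5 ± 15.6 CPM in dSPNs, 46.8 ± 14.6 CPM in iSPNs, 57.9 ± 33.7 CPM in Sst interneurons and 16.1 ± 19.8 CPM in astrocytes. Its highest mean, 70.6 ± 38.8 CPM in polydendrocytes (oligodendrocyte progenitors, n = 5), came from 11 UMIs. No neighbours in its order differed beyond their spread. Gabrg1 (gamma1), the gene next to Gabra2 and no member, named with its values seen, had its highest mean in astrocytes, at 96.2 ± 40.9 CPM. Unlike Gabrb1 there, it did not exceed the next type, polydendrocytes (68.4 ± 32.8 CPM), by more than the spread.

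**Figure D1:**
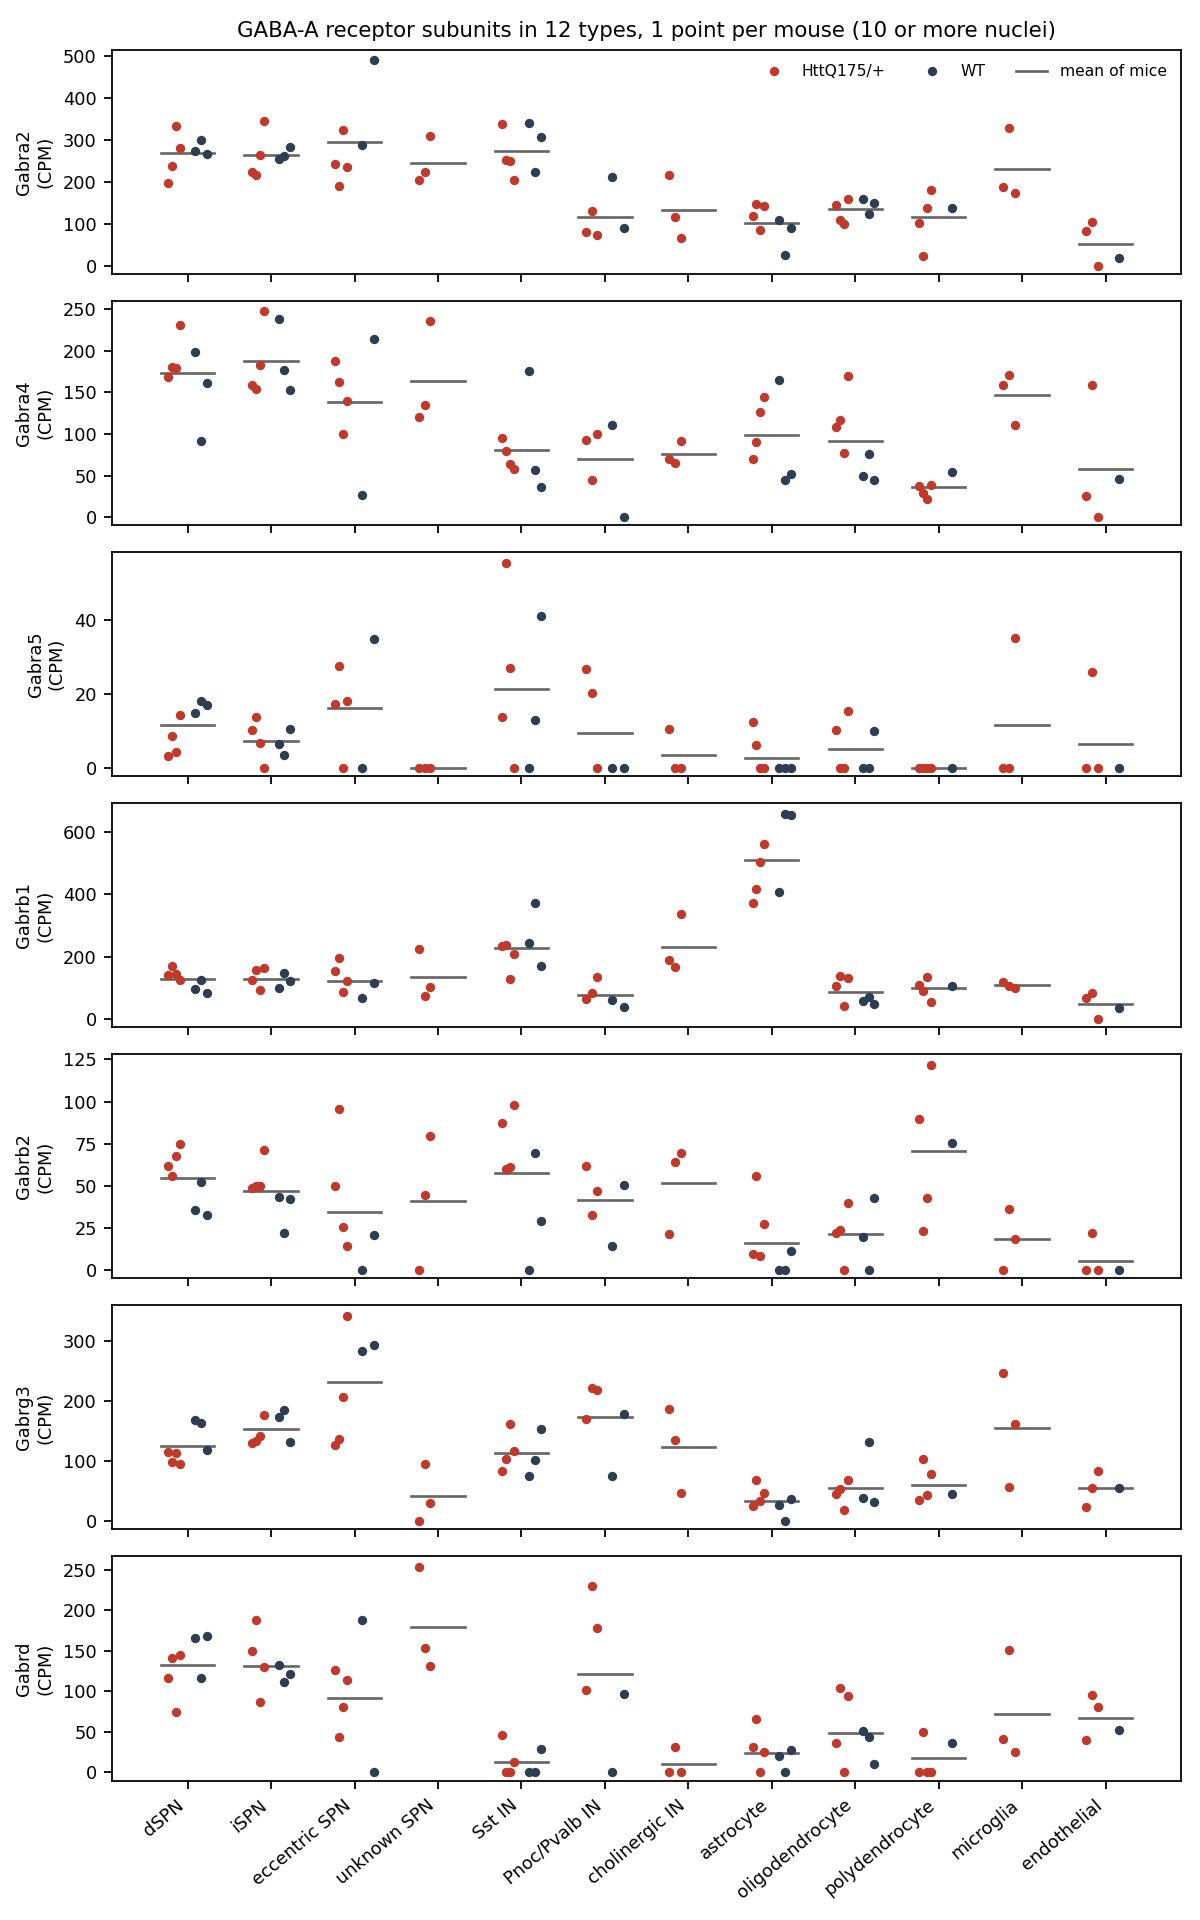
Levels of the 7 subunits in CPM (vertical axes, each with its own scale) in 12 annotated types (horizontal axis), 1 point per mouse with 10 nuclei or more, HttQ175/+ in red left of WT in dark blue, with a grey line at the mean of the mice. Gabrb1 peaks in astrocytes, with a mean of 510.3 CPM, and Gabrd is near 0 in Sst and cholinergic interneurons.

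Gabrg3 encodes gamma3. It was highest in eccentric SPNs, a small class apart from the main pathways, at 232 ± 88.7 CPM, and exceeded dSPNs there in 6 of 6 mice. IN-Pnoc/Pvalb nuclei held 173 ± 59.2 CPM, iSPNs 154 ± 24.5 CPM and dSPNs 125 ± 29.7 CPM. iSPNs exceeded dSPNs in 7 of 7 mice, although the means differed by less than the larger SD.

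Gabrd encodes delta, the subunit of tonic receptors. It was present in SPNs, at 132 ± 32.9 CPM in dSPNs and 131 ± 31.6 CPM in iSPNs, and in IN-Pnoc/Pvalb nuclei, at 121 ± 87.6 CPM. Sst interneurons held 12.4 ± 18.3 CPM, from 9 UMIs in 288 nuclei. The ratio of dSPNs to Sst interneurons was 10.6, and dSPNs exceeded Sst interneurons in 7 of 7 mice. Cholinergic interneurons gave 1 UMI in 73 nuclei (67 HttQ175/+ and 6 WT), a pooled level of 4.76 CPM with an exact Poisson 95% interval of 0.121 to 26.5 CPM, which covers counting error only. Nuclei annotated as Unknown.MSN had the highest mean, 179.8 ± 65.2 CPM. In IN-Pnoc/Pvalb nuclei with 10 or more per mouse, Gabrd read 102, 230.0 and 178 CPM in 3 HttQ175/+ mice (replicates 1, 2 and 4), against 0 and 97.3 CPM in 2 WT mice (replicates 1 and 2). HttQ175/+ replicate 1 lay only just above WT replicate 2, and the mice with fewer nuclei, HttQ175/+ replicate 3 and WT replicate 3, read 0 CPM. Over all nuclei of the type the pooled level was 148 CPM (28 UMIs, exact Poisson 95% interval 98.0 to 213 CPM) in HttQ175/+ and 42.2 CPM (5 UMIs, exact Poisson 95% interval 13.7 to 98.4 CPM) in WT nuclei, and this difference was not tested.

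RNA freed from SPNs can enter droplets of other nuclei, so low levels were set beside 8 SPN genes that other types should lack. In Sst interneurons these were read at a median of 14.1% of their SPN level, and Gabrd at 9.41% of its own. Gabra4 in Sst interneurons, at 43.1%, lay above 7 of the 8 genes, which ran from 6.53% to 30.1%, and below Tac1 (44.0%), whereas Gabrg3 (74.3%) and Gabrb2 (106%) lay above all 8. In cholinergic interneurons Drd2, which these neurons are known to express, stood at 72.6% and the other 7 genes at 0% to 5.39%. Gabra4 (40.3%) lay above those 7. Gabrd (7.84%) rests on 1 UMI in 73 nuclei, too few to place it above or among them. In astrocytes the 8 genes lay between 7.45% and 25.4%, and Gabra5 (23.4%), Gabrg3 (22.4%) and Gabrd (18.2%) fell inside that range. In oligodendrocytes they lay between 11.6% and 36.9%, with Gabrd (36.7%) and Gabrg3 (36.1%) inside and Gabrb2 (38.9%), Gabra5 (43.9%), Gabra4 (48.9%), Gabra2 (50.0%) and Gabrb1 (66.0%) above. In IN-Pnoc/Pvalb nuclei the highest of the 8 was 10.9%, whereas Gabrd stood at 91.8% of its SPN level. In microglia they reached 66.5%, and the members are not described further there. The part of free RNA in these levels was not tested. Mean levels in Unknown.MSN, cholinergic and microglial nuclei come from 3 HttQ175/+ mice and 0 WT mice with 10 nuclei or more, so type and genotype cannot be told apart in them.

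The share of each subunit in the summed CPM of the 7 is set side by side between types, 1 gene at a time, since CPM are not scaled by length. The summed level was 893 ± 58.0 CPM in dSPNs, 920.0 ± 103 CPM in iSPNs, 932 ± 130.4 CPM in eccentric SPNs, 788 ± 75.4 CPM in Sst interneurons, 629.8 ± 59.8 CPM in cholinergic interneurons and 609.7 ± 147 CPM in IN-Pnoc/Pvalb nuclei. Gabrd took 14.8% ± 3.66 of this sum in dSPNs, 14.4% ± 3.60 in iSPNs and 18.4% ± 11.3 in IN-Pnoc/Pvalb nuclei, but 1.52% ± 2.13 in Sst and 1.78% ± 3.09 in cholinergic interneurons. Gabrb1 took 37.1% ± 15.7 in cholinergic and 28.6% ± 8.14 in Sst interneurons, against 14.3% ± 3.60 in dSPNs. Gabra4 took 19.3% ± 4.18 in dSPNs, 20.3% ± 2.90 in iSPNs and 10.1% ± 5.22 in Sst interneurons. Gabrg3 took 28.3% ± 8.19 in IN-Pnoc/Pvalb nuclei and 24.7% ± 8.51 in eccentric SPNs, against 14.0% ± 3.33 in dSPNs. In astrocytes Gabrb1 took 64.8% ± 13.9. With each level first divided by gene length, the share of Gabrb1 in astrocytes was 26.8% ± 18.8, against 1.84% ± 0.645 in dSPNs. On that scale Gabrd took 67.2% ± 7.32 in dSPNs, 14.6% ± 19.2 in Sst interneurons and 30.5% ± 23.1 in astrocytes.

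**Figure D2:**
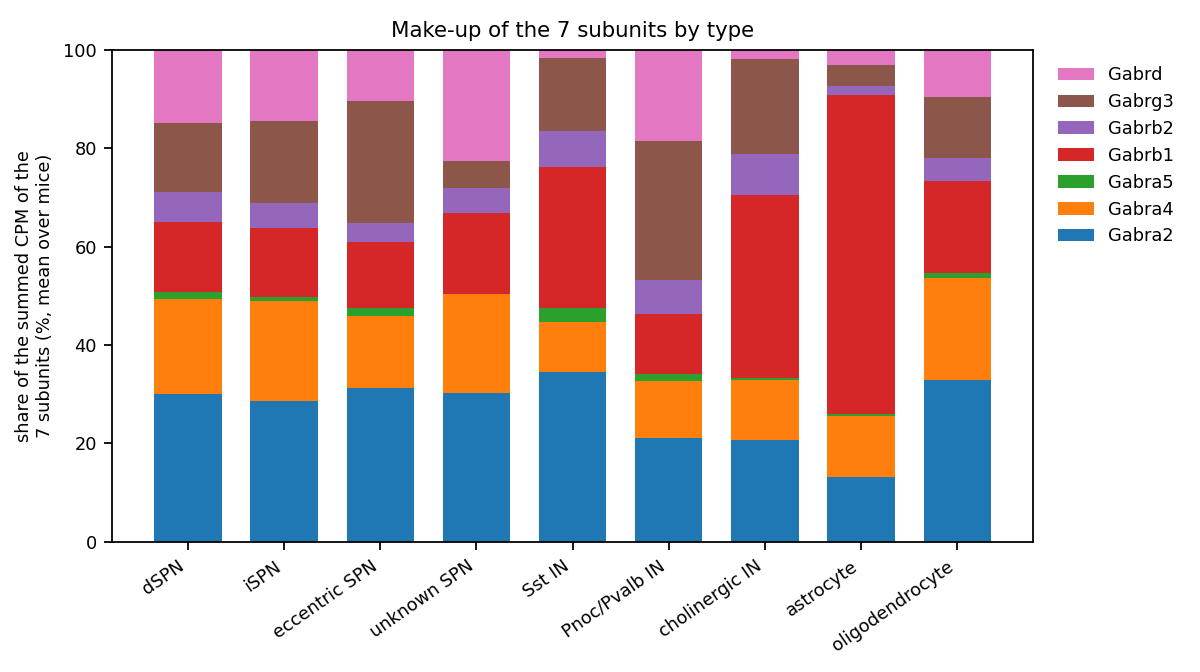
Share of each subunit in the summed CPM of the 7 (vertical axis, percent, not scaled by gene length, mean over mice with 10 nuclei or more) in 7 neuron types, astrocytes and oligodendrocytes (horizontal axis), 1 colour per subunit. Gabrd takes 14.8% in dSPNs and 1.52% in Sst interneurons, and Gabrb1 takes 64.8% in astrocytes.

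Levels of different genes were set against each other per length, as CPM per kb of gene body. Division by gene body raises short genes such as Gabrd (13.1 kb). In dSPNs Gabrd was highest on this scale, at 10.1 ± 2.51 CPM per kb, followed by Gabra4 at 1.96 ± 0.483 and Gabra2 at 1.95 ± 0.313 CPM per kb. Gabrb2 (0.260 ± 0.0747), Gabrb1 (0.259 ± 0.0618) and Gabrg3 (0.186 ± 0.0443 CPM per kb) were lower. In Sst interneurons Gabra2 led at 1.98 ± 0.394 CPM per kb. Without division by length, Gabra2 (269.6 CPM) lay above Gabra4 (173 CPM) and Gabrd (132 CPM) in dSPNs, so the order of genes depends on it. Whether UMIs of 3' tags scale with gene length in nuclei was not tested.

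Across the 12 types, on log2 of mean CPM plus 20, Gabra4 ran with Gabra2 (Pearson r = 0.74) and Gabrd (r = 0.66), whereas Gabrb1 ran against Gabrd (r = -0.47). Gabra4 and Gabrb1, the head-to-head pair, had r = 0.16. Among 9339 genes with 50 CPM or more in a type, the 3 most like Gabra2 were Zmym3, Celf3 and Ylpm1 (r = 0.94 to 0.96). Those most like Gabra4 were Cnih2, Mapk1ip1 and Gtf2h2 (r = 0.95 to 0.96). In likeness to Gabra4, Gabra2 ranked only 272 and Gabrd 537 among these genes. The nearest to Gabrb1 were 4931406C07Rik, Fam184a and Slc20a1 (r = 0.90 to 0.91), and to Gabrb2 Usp14, Lnp and Cxxc4 (r = 0.89 to 0.90). The nearest to Gabrg3 were Ubp1, Gm16183 and Azin2 (r = 0.91 to 0.94), and to Gabrd Sec14l1, Nphp4 and Mtcl1 (r = 0.89 to 0.90). These are descriptions over 12 types that share libraries, depth and free RNA.

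In dSPNs 0 of the 6 members tested were called between HttQ175/+ and WT mice (limma, adjusted p under 0.05), where 3.93% of 8796 genes were. At an unadjusted p under 0.05, 3 of 6 passed, against 1556 genes or 17.7%. For 2 of 6, Gabrg3 and Gabrb2, the genotypes did not overlap, where 17.8% of genes did not. The members' median log2 change was 0.01, against 0.02 over all genes tested.

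Gabrg3 had the smallest p among the members. It read 116, 99.4, 113 and 95.3 CPM in HttQ175/+ dSPNs (replicates 1 to 4), against 169, 164 and 118 CPM in WT dSPNs (replicates 1 to 3). All HttQ175/+ mice lay below all WT mice, and WT replicate 3 lay close to them. Means were 106 ± 10.1 CPM in HttQ175/+ and 151 ± 28.3 CPM in WT dSPNs (SD, n = 4 and 3), a log2 change of -0.60 ± 0.18 (SE; 95% interval -0.98 to -0.22; limma, adjusted p = 0.0802).

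Gabrb2 lay the other way. It read 61.5, 56.0, 67.8 and 75.0 CPM in HttQ175/+ dSPNs, against 35.8, 52.3 and 33.0 CPM in WT dSPNs. The groups did not overlap. Its log2 change came to 0.55 ± 0.21 (95% interval 0.10 to 1.00; limma, adjusted p = 0.188).

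Gabrb1 read 143, 172, 145 and 126 CPM in HttQ175/+ dSPNs, against 96.5, 126 and 82.4 CPM in WT dSPNs. The highest WT mouse lay just above the lowest HttQ175/+ mouse. The log2 change was 0.40 ± 0.18 (95% interval 0.01 to 0.79; limma, adjusted p = 0.272).

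Gabrd read 116, 141, 74.1 and 144 CPM in HttQ175/+ dSPNs, against 165, 117 and 168 CPM in WT dSPNs. The groups overlapped, with WT replicate 2 among the HttQ175/+ mice. This gave a log2 change of -0.47 ± 0.24 (95% interval -0.99 to 0.04; limma, adjusted p = 0.325). Its partner Gabra4 read 169, 181, 179 and 231 CPM in HttQ175/+ dSPNs, against 199, 91.1 and 162 CPM in WT dSPNs. These groups overlapped too. Its change came to 0.27 ± 0.24 on the log2 scale (limma, adjusted p = 0.626) and -0.077 without WT replicate 2. Gabra2 had a log2 change of -0.24 ± 0.17 (limma, adjusted p = 0.535), with 262 ± 58.1 CPM in HttQ175/+ and 279 ± 17.3 CPM in WT dSPNs. Gabra5, under the filter on low values, gave 3, 8, 2 and 8 UMIs in HttQ175/+ dSPNs and 6, 5 and 11 UMIs in WT dSPNs, or 3.28, 8.68, 4.40 and 14.4 CPM in HttQ175/+ and 14.9, 18.2 and 17.1 CPM in WT mice. The genotypes did not overlap, though HttQ175/+ replicate 4 (14.4 CPM) lay just below WT replicate 1 (14.9 CPM). Pooled exact Poisson 95% intervals did overlap, at 4.62 to 11.4 CPM in HttQ175/+ and 9.73 to 23.5 CPM in WT dSPNs. The 17.8% of genes without overlap covers only genes that passed the filter, and these few UMIs were not tested.

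As shares of the summed members, Gabrb2 took 7.26% ± 0.693 in HttQ175/+ dSPNs and 4.56% ± 1.27 in WT dSPNs, and 5.90% ± 0.358 in HttQ175/+ iSPNs and 3.96% ± 1.35 in WT iSPNs, without overlap in either type. Gabrg3 took 11.9% ± 1.91 in HttQ175/+ dSPNs and 16.9% ± 2.60 in WT dSPNs, with overlap. The summed level was 896 ± 66.8 CPM in HttQ175/+ and 889.7 ± 58.0 CPM in WT dSPNs, a difference smaller than the spread. The shares were not tested, since they rest on the same levels.

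**Figure D3:**
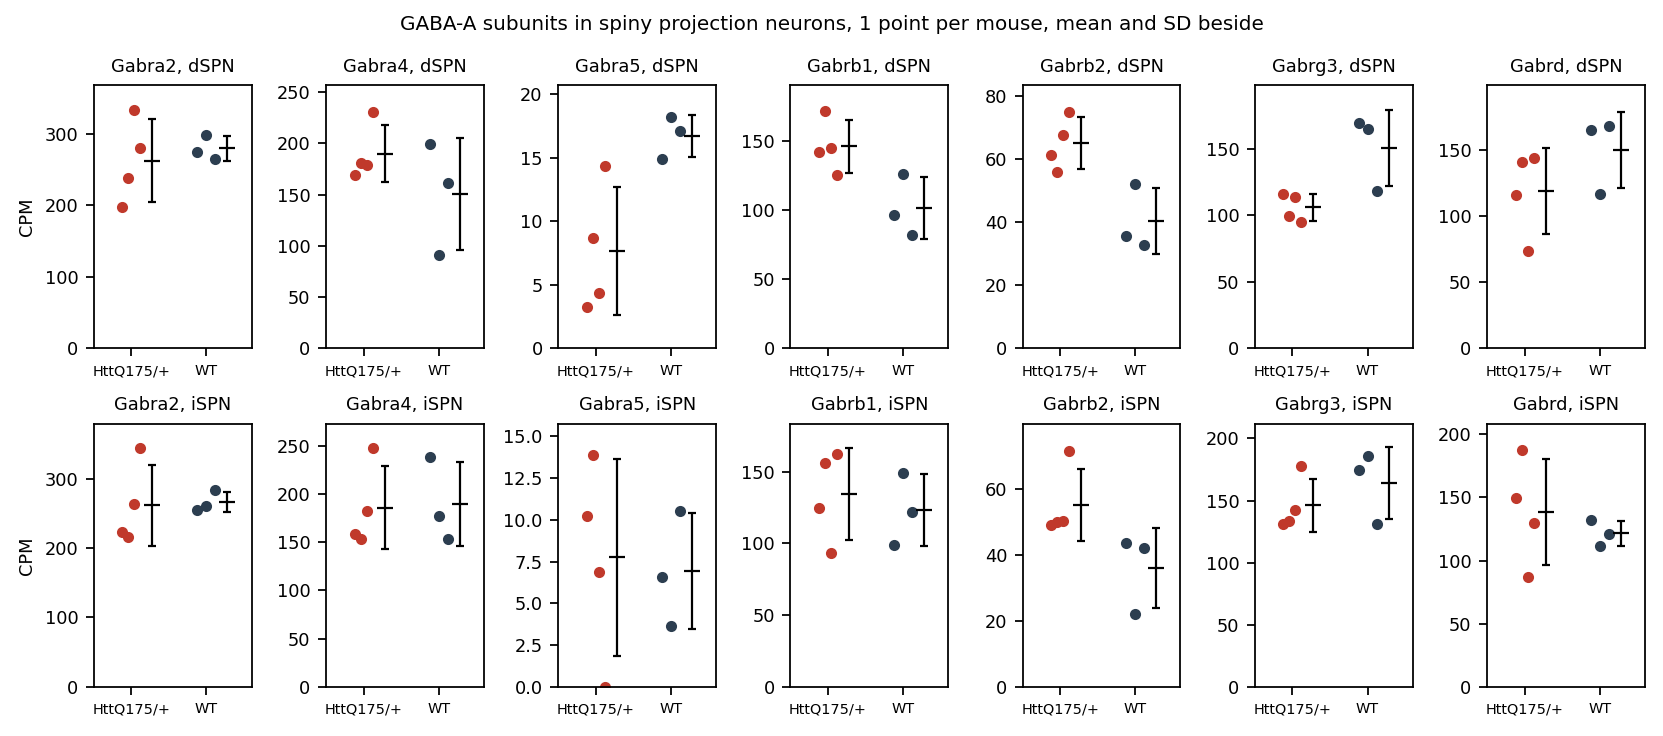
Levels of the 7 subunits in CPM (vertical axes from 0, each with its own scale) in dSPNs (upper row) and iSPNs (lower row), HttQ175/+ mice in red left of WT mice in dark blue, 1 point per mouse with the mean and SD beside (n = 4 and 3). In dSPNs the HttQ175/+ mice lie below the WT mice for Gabrg3 and above them for Gabrb2, and no member tested was called.

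In iSPNs 0 of 6 members tested were called (limma), where 2.4% of 5908 genes were, and 0 of 6 passed an unadjusted p under 0.05, against 896 genes or 15.2%. For 1 of 6, Gabrb2, the genotypes did not overlap, where 14.6% of genes did not. Gabrb2 read 49.0, 49.8, 50.1 and 71.3 CPM in HttQ175/+ iSPNs, against 43.6, 21.9 and 42.0 CPM in WT iSPNs, a log2 change of 0.45 ± 0.29 (limma, adjusted p = 0.535). Gabrg3 read 131, 133, 143 and 177 CPM in HttQ175/+ iSPNs, against 174, 186 and 131 CPM in WT iSPNs, with overlap (log2 change -0.26 ± 0.21; limma, adjusted p = 0.617). Gabra2 and Gabra4 had log2 changes of -0.16 ± 0.20 and -0.14 ± 0.22. For Gabrb1 the change was -0.01 ± 0.24 (0.10 without scaling) and for Gabrd 0.02 ± 0.24 (-0.056 from summed UMIs), with 95% intervals of -0.51 to 0.50 and -0.50 to 0.54. Gabra5, under the filter, gave 11 UMIs in HttQ175/+ and 8 UMIs in WT iSPNs.

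Averaged over both SPN types in each mouse, 0 of 6 members were called (limma), where 5.56% of 5903 genes were, and 2 of 6 passed an unadjusted p under 0.05, against 1162 genes. These were Gabrb2, at 0.50 ± 0.17 (limma, adjusted p = 0.127), and Gabrg3, at -0.43 ± 0.15 (limma, adjusted p = 0.133), on the log2 scale. The change in dSPNs minus that in iSPNs was called for 0 of 6 members (limma), where 0% of 5903 genes were called, with 0 members and 347 genes at an unadjusted p under 0.05. Gabrd had the smallest p among the members there, with a difference of -0.50 ± 0.24 (95% interval -1.02 to 0.02; limma, adjusted p = 0.813).

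Marker sums differed by genotype in the same nuclei. SPN markers (7 of 7 detected) summed to 4270.0 to 4900.1 CPM in HttQ175/+ dSPNs against 9368 to 9878 CPM in WT dSPNs, and to 4882 to 5884 CPM in HttQ175/+ iSPNs against 10389 to 10540.2 CPM in WT iSPNs. In dSPNs markers of eccentric SPNs summed to 81.8 to 119.8 CPM in HttQ175/+ and 34.1 to 60.8 CPM in WT mice, those of neural progenitors to 104 to 155 CPM in HttQ175/+ and 59.5 to 72.4 CPM in WT mice, and those of cortical excitatory neurons to 19.8 to 39.5 CPM in HttQ175/+ and 3.12 to 10.1 CPM in WT mice (5 of 5 genes of each list detected). Markers of oligodendrocyte progenitors (117 to 137 CPM in HttQ175/+ and 74.0 to 103 CPM in WT dSPNs), of microglia (23.1 to 30.9 CPM in HttQ175/+ and 15.8 to 17.3 CPM in WT dSPNs) and of Pvalb and Pthlh interneurons (3 of 4 detected; 3.31 to 5.13 CPM in HttQ175/+ and 1.91 to 2.87 CPM in WT dSPNs) did not overlap either, whereas those of astrocytes did (359 to 405 CPM in HttQ175/+ and 378 to 536 CPM in WT dSPNs). Markers of dSPNs themselves summed to 669 to 896 CPM in HttQ175/+ and 1096 to 1478 CPM in WT dSPNs. In iSPNs markers of eccentric SPNs summed to 45.0 to 71.5 CPM in HttQ175/+ and 12.1 to 22.5 CPM in WT mice, those of neural progenitors to 112 to 155 CPM in HttQ175/+ and 62.6 to 96.9 CPM in WT mice, and those of iSPNs themselves to 802 to 906 CPM in HttQ175/+ and 1964 to 2669 CPM in WT mice (5 of 5 genes of each list detected). The part of these markers in the values of the subunits, Dmd and Gabbr1 was not tested. The median log2 change of all genes was 0.02 in dSPNs after scaling and 0.14 without it, and the called genes split into 126 higher and 220 lower after scaling, against 226 higher and 162 lower without it. In iSPNs the split was 31 higher and 111 lower after scaling, against 43 and 75 without it, and in the average of both 100 and 228, against 182 and 152.

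In Sst interneurons Gabra2, Gabrb1 and Gabrg3 passed the filter, and 0 of 3 were called (limma), where 0% of 2296 genes were, with 0 of 3 and 178 genes at an unadjusted p under 0.05. In 0 of 3 the genotypes did not overlap, where 7.88% of genes did not. Gabra2 read 338, 252, 250.2 and 205 CPM in HttQ175/+ Sst interneurons, against 339, 223 and 307 CPM in WT ones, with overlap. Log2 changes were -0.10 ± 0.27 for Gabra2, -0.27 ± 0.31 for Gabrb1 and 0.11 ± 0.35 for Gabrg3. Gabrd, under the filter, read 45.5, 0, 0 and 12.3 CPM in HttQ175/+ and 0, 0 and 29.3 CPM in WT Sst interneurons, near 0 in both genotypes. The SPN genes that mark free RNA summed to 812 to 1026 CPM in HttQ175/+ and 1251 to 1534 CPM in WT Sst interneurons, without overlap. Also without overlap, SPN markers summed to 912 to 1734 CPM in HttQ175/+ and 1792 to 2538 CPM in WT mice. Markers of iSPNs (81.0 to 188 CPM in HttQ175/+ and 275 to 427 CPM in WT mice) did not overlap either. The same held for markers of Pvalb and Pthlh interneurons (133 to 188 and 88.3 to 110 CPM) and of oligodendrocyte progenitors (177 to 268 and 84.2 to 164 CPM). Markers of Sst interneurons overlapped (1225 to 3813 CPM in HttQ175/+ and 2035 to 7556 CPM in WT mice). The part of such markers in these values was not tested.

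In astrocytes Gabra2, Gabra4 and Gabrb1 passed the filter, and 0 of 3 were called (limma), where 0% of 1873 genes were, with 0 of 3 and 256 genes at an unadjusted p under 0.05. In 0 of 3 the genotypes did not overlap, where 11.8% of genes did not. Gabrb1, which peaks in astrocytes, read 371, 417, 503 and 560.0 CPM in HttQ175/+ astrocytes, against 407, 659 and 656 CPM in WT astrocytes. The groups overlapped, since WT replicate 1 lay among the HttQ175/+ mice. The log2 change was -0.33 ± 0.29 (95% interval -0.93 to 0.28; limma, adjusted p = 0.64). Gabra2 and Gabra4 had log2 changes of 0.62 ± 0.46 and 0.34 ± 0.49. Oligodendrocyte markers summed to 1046 to 2076 CPM in HttQ175/+ and 537 to 1021 CPM in WT astrocytes, without overlap. Nor did markers of microglia overlap (67.8 to 286 CPM in HttQ175/+ and 0 to 65.2 CPM in WT astrocytes). Those of cholinergic interneurons read 12.4 to 56.5 CPM in HttQ175/+ and 0 CPM in WT astrocytes. Astrocyte markers overlapped (8342 to 13008 CPM in HttQ175/+ and 12546 to 14415 CPM in WT mice). The part of such markers in these values was not tested.

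In oligodendrocytes the same 3 genes passed the filter and 0 were called (limma), where 0.658% of 3650 genes were, with 1 of 3 and 484 genes at an unadjusted p under 0.05. For that 1, Gabra4, the genotypes did not overlap, where 11.4% of genes did not. Gabra4 read 108, 117, 76.8 and 170.2 CPM in HttQ175/+ oligodendrocytes, against 49.3, 76.3 and 44.6 CPM in WT oligodendrocytes. HttQ175/+ replicate 3 lay only just above WT replicate 2. The log2 change was 0.84 ± 0.34 (95% interval 0.14 to 1.55; limma, adjusted p = 0.267). The SPN genes that mark free RNA summed to 1234 to 2232 CPM in HttQ175/+ and 2197 to 3129 CPM in WT oligodendrocytes, and oligodendrocyte markers to 9331 to 20290.5 CPM in HttQ175/+ and 23405 to 26302 CPM in WT mice. Markers of iSPNs summed to 123 to 307 CPM in HttQ175/+ and 368 to 457 CPM in WT oligodendrocytes, and those of neural progenitors (4 of 5 detected) to 93.0 to 125 CPM in HttQ175/+ and 21.0 to 48.3 CPM in WT mice, neither with overlap. Their part in the result was not tested. Gabra2 and Gabrb1 had log2 changes of -0.20 ± 0.30 and 0.58 ± 0.38.

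**Figure D4:**
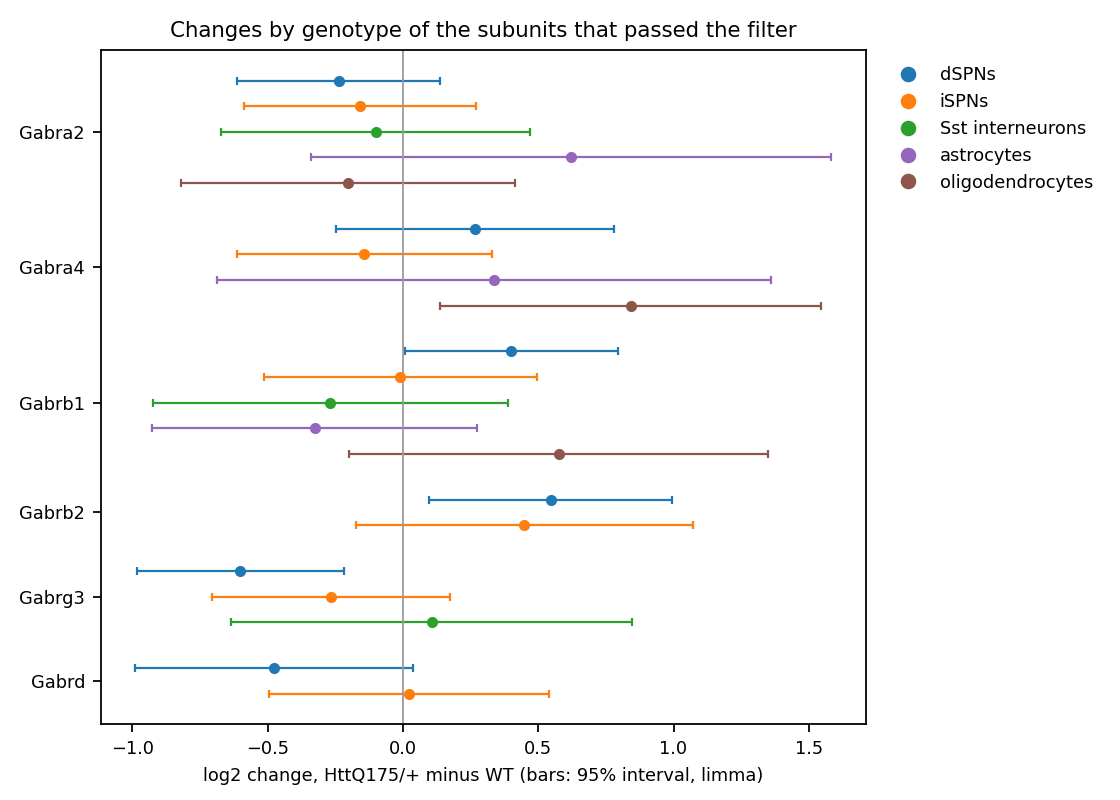
Log2 changes of HttQ175/+ minus WT (horizontal axis) with 95% intervals from limma for each subunit that passed the filter (rows), coloured by type. Gabrg3 in dSPNs lies farthest below 0, at -0.60, and Gabra4 in oligodendrocytes farthest above, at 0.84, and neither was called.

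The rest of the pathway was read from the same fits in 4 lists, whose counts stand beside the 3.93% of all genes called in dSPNs and 2.4% in iSPNs, and beside the 17.7% and 15.2% with an unadjusted p under 0.05. Of 25 genes of the inhibitory postsynapse and of receptor traffic, 23 were in the tables, 20 were tested in dSPNs and 19 in iSPNs, and in each 1 rose and 0 fell. It was Dmd, which encodes dystrophin, a scaffold protein at some inhibitory synapses. Dmd read 364, 315, 268 and 341 CPM in HttQ175/+ dSPNs, against 177, 127 and 141 CPM in WT dSPNs. The groups lay far apart. It rose by 0.99 ± 0.18 on the log2 scale in dSPNs (limma, adjusted p = 0.00513) and by 0.97 ± 0.19 in iSPNs (limma, adjusted p = 0.0125), with 362 ± 26.2 CPM in HttQ175/+ and 169 ± 42.4 CPM in WT iSPNs. The iSPN call was lost without HttQ175/+ replicate 1 (adjusted p = 0.0523) or WT replicate 3 (adjusted p = 0.0735). In oligodendrocytes Dmd read 203, 255, 137 and 178 CPM in HttQ175/+ mice, against 81.1, 110.4 and 117 CPM in WT mice. The genotypes did not overlap there, and the log2 change of 0.77 ± 0.30 was not called (limma, adjusted p = 0.251). The median of the list was 0.03 in dSPNs and -0.04 in iSPNs.

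Of 8 genes of GABA-B receptors, the G protein-coupled receptors for GABA, 7 were tested in dSPNs and 3 in iSPNs, and in each 1 fell and 0 rose, with list medians of 0.15 and 0.04. It was Gabbr1, which encodes the subunit that binds GABA. Gabbr1 read 239.9, 198, 267 and 211 CPM in HttQ175/+ dSPNs, against 352, 365 and 303 CPM in WT dSPNs. In iSPNs it read 208, 168, 272 and 174.6 CPM in HttQ175/+ mice, against 408, 363 and 421 CPM in WT mice. The genotypes overlapped in neither type. The log2 change was -0.69 ± 0.15 in dSPNs (limma, adjusted p = 0.0198) and -1.06 ± 0.20 in iSPNs (limma, adjusted p = 0.0093), and the difference between them was 0.37 ± 0.23 (limma, adjusted p = 0.841). The dSPN call was lost without HttQ175/+ replicate 2 (adjusted p = 0.0562) or 4 (0.0623), without WT replicate 1 (0.0885) or 2 (0.0545), and without scaling (0.0575). The iSPN call was lost without WT replicate 1 (adjusted p = 0.058) or 3 (0.055). In the average of both SPN types Gabbr1 changed by -0.87 ± 0.15 (limma, adjusted p = 0.00678) and Dmd by 0.98 ± 0.16 (limma, adjusted p = 0.00454).

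**Figure D5:**
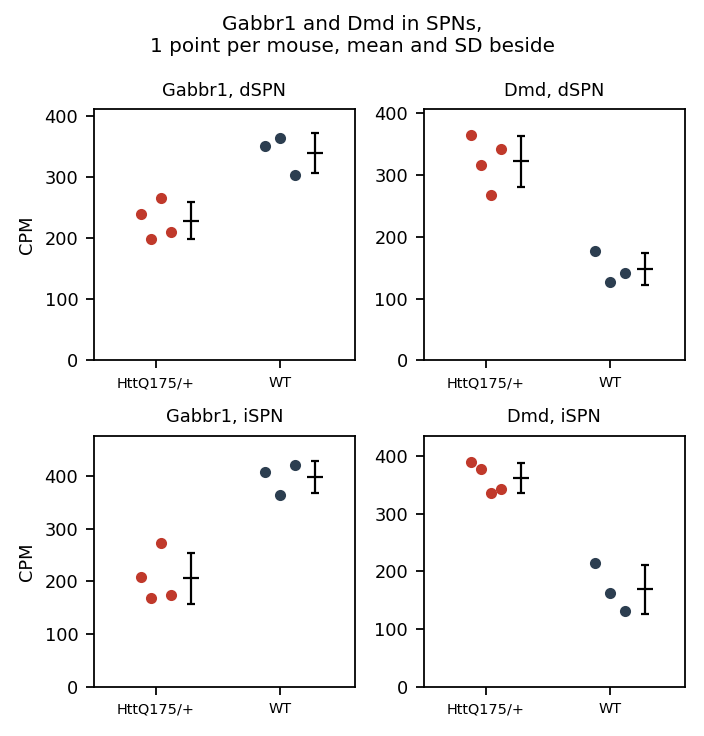
Levels in CPM (vertical axes from 0, each with its own scale) of Gabbr1 and Dmd in dSPNs (upper row) and iSPNs (lower row), HttQ175/+ mice in red left of WT mice in dark blue, 1 point per mouse with the mean and SD beside (n = 4 and 3). Gabbr1 lies lower and Dmd higher in all HttQ175/+ mice than in any WT mouse, in both SPN types.

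Of 9 genes of GABA synthesis, release and uptake, 6 were tested in each SPN type and 0 were called (limma), with 2 in dSPNs and 2 in iSPNs at an unadjusted p under 0.05 and medians of -0.24 and -0.30. In oligodendrocytes, where 0.658% of all genes were called, 1 of 4 fell, Glul, which encodes glutamine synthetase, at 217 ± 64.5 CPM in HttQ175/+ and 1067 ± 174 CPM in WT mice (SD, n = 4 and 3; log2 change -2.28 ± 0.29; limma, adjusted p = 0.000147). Of 11 genes of chloride transport, which sets the driving force of the receptor, 10 were tested in dSPNs and 8 in iSPNs, and 0 were called (limma), with 1 and 2 at an unadjusted p under 0.05. In astrocytes and Sst interneurons 0 genes of the 4 lists were called (limma), as were 0% of all genes in either, with 0 and 2 list genes at an unadjusted p under 0.05.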

How the data were processed

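Single nuclei of striatum were read with 3' tags, per the labels' protocols, and the submitters' processing notes name Cell Ranger 3.0.2, Seurat and mm10. The authors deposited expression per mouse as natural log values, ln of 1 + UMIs scaled to 10000 in a nucleus. UMIs recovered by dividing by the step of 1 UMI were whole for 100% of 5824756 values above 0 (tolerance 0.02). Types come from the other deposited table, an annotation, whose genotype matched the labels in 4524 of 4524 nuclei. Scrublet (scanpy 1.11.5) marked 53 nuclei (1.17%) as doublets. They were kept, and no source used here says whether doublets had been removed before deposit. A smoothed expression table of the whole series was not used here.

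Values were made linear, averaged over the nuclei of a type in each mouse and written as CPM, which are printed before scaling. For tests, CPM were scaled by trimmed mean of M values (trims of 30% and 5%) and put on a log2 scale after adding the CPM worth of 2 UMIs in the median mouse, so fold changes of low genes are understated. Genes needed 15 UMIs in all and 10 at the median depth in 3 mice. limma 3.58.1 (R 4.3.3) was fitted over all genes passing, with Benjamini-Hochberg adjustment. A log-scale model was chosen because the deposited unit is a log value, and a count model on the recovered UMIs was not run. The fits were tested on simulated data. Only dSPNs, iSPNs, astrocytes, oligodendrocytes and Sst interneurons held 10 nuclei or more in every mouse and were tested. Mice under 10 nuclei of a type were left out of its levels. Neighbours in an order differ beyond their spread where means differ by more than the larger SD. p-values measure the spread between these mice, with 1 library each. Named genes were the 7 members, the called genes of 4 lists, the 3 genes most like each member, and Htt. Gabrg1 was added with its values seen. The members and lists were chosen with earlier results of these data known. Another list is not reported here. Alternatives were the pseudocount, scaling, filter, summed UMIs, doublets and leaving out each mouse.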

Additional observations from a re-analysis of the deposited data

Results flagged for a closer look

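Of the groups of 4 HttQ175/+ mice screened for a mouse far from the others, 35 in all, 1 stood out: Gabrb2 in iSPNs, where HttQ175/+ replicate 4 read 71.3 CPM and the other 3 read 49.0, 49.8 and 50.1 CPM. The gap to the nearest mouse was 0.951 of the group's range, above Dixon's 95% critical value for 4 samples, and chance gives about 1 such group in 20.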

How the results depend on the processing

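Of 502 recomputed values, 473 kept their direction and side of the threshold, 20 reversed and 9 lost a call. The members called stayed at 0 in all comparisons and alternatives, with adjusted p of 0.0507 to 0.244 for Gabrg3 and 0.0923 to 0.355 for Gabrb2 in dSPNs over the alternatives. Over all alternatives, log2 changes ran from -0.077 to 0.51 for Gabra4 in dSPNs. In iSPNs they ran from -0.29 to 0.015 for Gabra4, -0.16 to 0.15 for Gabrb1 and -0.13 to 0.22 for Gabrd. In Sst interneurons they ran from -0.24 to 0.013 for Gabra2, -0.49 to 0.019 for Gabrb1 and -0.13 to 0.38 for Gabrg3. They ran from -0.14 to 0.26 for Gabra4 in the SPN average. In the SPN difference they ran from -0.18 to 0.016 for Gabra2 and -0.15 to 0.53 for Gabrb2. In iSPNs Gabrb1 was 0.10 without scaling and 0.012 from summed UMIs, and Gabrd -0.056 from summed UMIs. Genes called without 1 mouse numbered 203 to 321 in dSPNs (lowest without HttQ175/+ replicate 1, and 208 without WT replicate 1), 53 to 138 in iSPNs (lowest without WT replicate 1, with 82 without HttQ175/+ replicate 1 and 72 without WT replicate 3), 154 to 303 in the SPN average (lowest without WT replicate 1), 0 to 7 in astrocytes, 1 to 120 in oligodendrocytes and 0 to 1 in Sst interneurons. Oligodendrocytes had 15 called genes with a pseudocount of 0.5 UMI. With no filter on low genes the counts were 2 in oligodendrocytes, 2 in Sst interneurons and 607 in the SPN average. The cause was not tested. Summed UMIs moved 1 of 84 levels by more than 1 SD (Gabra4 in polydendrocytes), and shares per kb moved 33 of 49. Depth limits Gabra5 in every type, and Gabrb2, Gabrg3 and Gabrd in glia. No paired analysis was possible because no number in the labels ties a mouse of one genotype to one of the other.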
